A study of Mus musculus with 69 samples.

Results

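The 39 genes described here encode proteins that copy DNA or carry a cell from G1 into S phase. They were taken by symbol from the count table of mosaic mouse gastruloids, embryo-like aggregates grown from mouse embryonic stem (mES) cells. All 39 were present among the 55367 symbols of the table, 42280 of which had a count in some library, and all 39 passed the filter on low counts in every comparison. By role they comprised 5 origin licensing genes (Orc1, Orc6, Cdc6, Cdt1, Gmnn), the 6 subunits of the MCM2-7 helicase (Mcm2 to Mcm7), 4 helicase activation genes (Mcm10, Cdc45, Gins1, Gins2) and 5 primase and polymerase genes (Pola1, Pola2, Prim1, Pole, Pold1). The others were 7 genes of the sliding clamp, its loader, lagging strand processing and the single-strand binding protein RPA (Pcna, Rfc3, Rfc4, Rfc5, Fen1, Lig1, Rpa2), 4 of nucleotide supply (Rrm1, Rrm2, Tyms, Tk1), 5 cyclin E and E2F genes (Ccne1, Ccne2, E2f1, E2f2, E2f8) and 3 of histone supply (Chaf1a, Chaf1b, Slbp).

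The study asked how cells without p53 outcompete WT cells in a gastruloid. All cells were E14Tg2A mES cells kept in serum with LIF, and all gastruloids were made in N2B27 medium with the GSK3 inhibitor CHIR99021 present from 48 to 72 h. The 23 groups of 3 libraries held 3 clones: WT–mCherry (EF1α–H2B–mCherry), WT–emiRFP (CAG–H2B–emiRFP670) and p53KO–emiRFP, a daughter clone of WT–emiRFP with a homozygous frameshift in Trp53 exon 4 that had been selected with Nutlin-3a. Each clone was sequenced as mES cells at 0 h, and each gastruloid population was sorted at 48, 72, 96, 120 and 144 h from mosaics. These were seeded with 150 WT–mCherry cells and either 150 cells of the WT–emiRFP clone (WT + WT) or 25 of the p53KO–emiRFP clone (WT + p53KO). The p53KO genotype was represented by a single clone, so genotype and clone cannot be told apart. In gastruloids p53KO–emiRFP cells also came from another mosaic than the WT–emiRFP cells they were compared with.

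DNA replication starts at origins. The origin recognition complex, Cdc6 and Cdt1 load the ring-shaped MCM2-7 helicase in G1, geminin (Gmnn) keeps Cdt1 in check, and Cdc45, the GINS complex and Mcm10 turn the loaded helicase into a moving fork at the onset of S phase. Cyclin E drives that onset together with the kinase CDK2, and E2F transcription factors, held back in G1 by the RB family, switch on many of the genes listed above. p53 acts on the same axis through p21 (Cdkn1a), which inhibits cyclin-dependent kinases. Pluripotent cells are known for a short G1 phase and high cyclin E.

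The promoters of the members are of interest because E2F proteins bind a short GC-rich word near the start of many replication genes. Promoters in RefSeq (GRCm38.p6) could be matched by symbol for 33 members. The words TTTCCCGC, TTTCGCGC, TTTGCCGC and TTTGGCGC were searched on both strands of the 250 bases before each start, and 7 of 33 members (21.2%) held at least 1 of them (Orc1, Cdc6, Mcm5, Mcm6, Mcm7, Pola1, Rfc3), beside 583 of 27025 genes with a promoter in that table (2.16%). CCAAT was found in 20 of 33 members (60.6%) and in 37.5% of genes, and TTTGAA in 5 of 33 members (15.2%) and in 18.3% of genes. A match is a description of letters, not of a bound site. The stretches below, 5′ to 3′ on the strand of the gene, show the 2 members in which words overlap on opposite strands, Mcm6 and Mcm5, and Pola1, a member with 1 word, and capitals mark the words.
Mcm6, chr1:128359735-128359825, minus strand: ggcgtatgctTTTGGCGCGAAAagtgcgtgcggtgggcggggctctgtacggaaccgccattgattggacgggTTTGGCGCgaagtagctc
Mcm5, chr8:75109327-75109396, plus strand: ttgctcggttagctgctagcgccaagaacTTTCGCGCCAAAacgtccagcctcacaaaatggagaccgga
Pola1, chrX:93632255-93632324, minus strand: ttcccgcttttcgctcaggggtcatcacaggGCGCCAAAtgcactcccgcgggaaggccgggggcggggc

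Libraries held 26722541 to 72981570 counts (median 53098728). Values per library are normalised counts, the count divided by the size factor of the library, and are given in the order of replicates 1, 2 and 3. Trp53 checked the labels: its group means ran from 14712 to 25675 in the WT groups and from 1632 to 2501 in the p53KO groups. The markers of mES cells, neurons, spinal cord, caudal mesoderm, haematoendothelium, heart and endoderm were each detected in at least 1 library of every group. In bulk samples fewer cycling cells and less RNA per cycling cell cannot be told apart. The strand setting of the counting was not stated, so reads of a member and of a gene on the opposite strand cannot be told apart either. Such a gene covered 78.8% of the exon bases of Fen1 (mean normalised count 206 over all libraries), 67.3% of Gins2, 52.5% of Chaf1a, 17.4% of Ccne2, 12.7% of Rfc4, 11.2% of E2f8, 10.8% of Orc1 and 10.7% of Rfc5.

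Per kb of exon, on the CPM scale that corrects for library size, the members spanned a wide range of levels in WT–mCherry cells beside WT at 48 h. Pcna, the sliding clamp, was highest (221 ± 13.97, SD, n = 3), followed by Mcm3 (169), Mcm5 (165), Rrm2 (152), Mcm7 (137) and Mcm4 (130). Ccne1 stood at 96.2 and its paralogue Ccne2 at 5.20. The lowest were Fen1 (1.92) and E2f2 (1.24 ± 0.0919). An opposite-strand gene covered 78.8% of the exon bases of Fen1, so its level per kb depends on the strand setting, which was not stated.

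The 39 genes together took between 6397 and 8861 CPM of a group's RNA (group means). This summed level was highest at 48 h in all 4 gastruloid populations. In WT–mCherry cells of WT + WT it went from 8439 ± 220 CPM (SD, n = 3) at 48 h to 7434 ± 161 CPM by 72 h and was 6917 ± 58.9 CPM by the last time, 144 h. In p53KO–emiRFP cells it was 8861 ± 117 CPM at 48 h and 8128 ± 155 at 72 h, with every library above every WT–emiRFP library (7949 to 8180 at 48 h and 6924 to 7407 at 72 h). The same held at 96 h, with 7578 to 7931 CPM against 7330 to 7403, while by 120 h p53KO–emiRFP cells lay lower (7215 to 7507 against 7607 to 7678). WT–mCherry cells beside p53KO had the lowest sum at 96, 120 and 144 h (7018 ± 17.4, 7146 ± 140 and 6397 ± 240 CPM), and from 96 h on each of their libraries lay below each library of WT–mCherry beside WT.

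**Figure D1:**
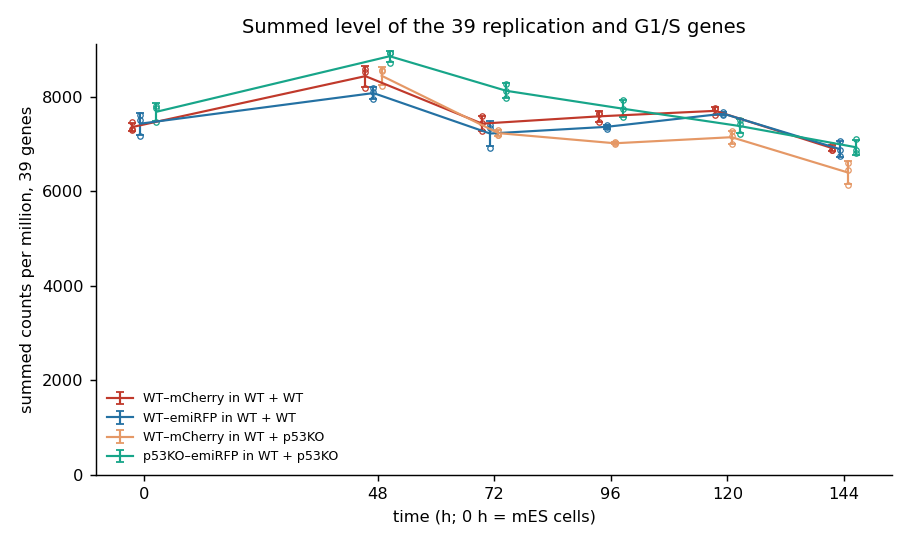
Summed level of the 39 genes in CPM (y axis, from 0) against time in hours (x axis), by population, with a point for each library and the mean of 3 with its SD. p53KO–emiRFP cells lie above WT–emiRFP cells at 48, 72 and 96 h and below them at 120 h, and WT–mCherry cells beside p53KO lie lowest from 96 h.

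The first comparison followed WT cells over time, as the mean of WT–mCherry and WT–emiRFP cells of WT + WT (6 libraries a time). In separate steps most members rose from 0 to 48 h, most fell between 48 and 72 h and most fell between 120 and 144 h, and 16 of 39 did all 3. The share of all genes with the same 3 calls was not computed, so the 16 cannot be set against it. From 0 to 48 h 24 of 39 were higher and 8 lower, while 32.0% and 35.8% of all genes tested were called higher and lower. From 48 to 72 h 3 were higher and 30 lower (29.8% and 30.7% of all genes). From 72 to 96 h the counts were 13 and 8 (27.1% and 25.2%), and from 96 to 120 h 9 and 13 (26.8% and 25.7%). From 120 to 144 h 1 was higher and 30 lower (23.4% and 19.9% of all genes). The median log2 fold change of the members was 0.20, −0.22, 0.00, −0.02 and −0.17 in the 5 steps, beside a median over all genes of −0.03, −0.02, 0.01, 0.00 and 0.01. Consecutive steps share the libraries of the time between them. All calls are from edgeR's quasi-likelihood test at a Benjamini-Hochberg adjusted p of 0.05 over all genes.

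The rise to 48 h reached all 4 nucleotide supply genes, all 3 histone supply genes and 4 of the 6 MCM subunits (Mcm2 to Mcm7), with none of these groups' members lower. Chaf1b, a subunit of the chromatin assembly factor that deposits new histones, rose by 0.85 on the log2 scale, Slbp, which binds histone mRNA, by 0.67, and Pcna by 0.57. The 8 members that fell were Cdc45, E2f1, E2f2, Gmnn, Lig1, Orc1, Prim1 and Rfc4. E2f2 fell most, by 1.48 on the log2 scale. It stood at 1013, 951 and 798 normalised counts in WT–mCherry mES cells and 1086, 984 and 844 in WT–emiRFP mES cells, and at 48 h at 358, 370 and 325 and at 256, 344 and 386. Every 48 h library was below every mES library for this gene, an E2F that activates S phase genes.

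Chaf1b, the leading rise, stood at 4013, 4380 and 4111 normalised counts in WT–mCherry and 5795, 5201 and 4577 in WT–emiRFP mES cells, and at 48 h between 7731 and 8953 over the 6 libraries, without overlap (SE 0.0415, adjusted p = 1.08e-25). Slbp went from 4856 to 5849 over the mES libraries to 7673 to 9271 at 48 h, again apart (SE 0.041, adjusted p = 1.56e-21). Pcna went from 16134 to 25688 to 25588 to 33008 (SE 0.0523, adjusted p = 1.59e-14), and its ranges met because replicate 3 of WT–mCherry mES cells, at 25688, lay above the other 5 mES libraries (16134 to 19751).

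The fall from 48 to 72 h took in all 5 origin licensing genes, all 6 MCM subunits, all 4 helicase activation genes, all 4 nucleotide supply genes and all 3 histone supply genes. The primase and polymerase genes fell in 3 of 5 cases, with Pola2 (adjusted p = 0.442) and Prim1 (adjusted p = 0.104) not called. The clamp, loader and RPA genes were mixed, with 3 lower, 2 higher and Rfc4 and Fen1 not called. In the cyclin E and E2F group Ccne1 and E2f8 fell, Ccne2 rose, and E2f1 and E2f2 were not called.

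Ccne1, which encodes cyclin E1 (chr7:38097984-38107534 in GRCm38.p6), changed most. It stood at 15402, 15393 and 13926 normalised counts at 48 h and at 7651, 8032 and 7915 at 72 h in WT–mCherry cells. In WT–emiRFP cells it went from 13735, 13449 and 12798 to 6850, 7568 and 6533. No 72 h library overlapped a 48 h library, and the log2 fold change was −0.93 (SE 0.0584, adjusted p = 1.41e-20).

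E2f8, an E2F that represses transcription, stood at 2914, 2961 and 2893 normalised counts at 48 h and 1656, 1801 and 1557 at 72 h in WT–mCherry cells, and at 2693, 2808 and 2916 and then 1548, 1703 and 1422 in WT–emiRFP cells. The groups were again apart, with a log2 fold change of −0.83 (SE 0.0462, adjusted p = 8.36e-23). Rfc5, a subunit of the clamp loader, went from 12444 to 15134 over the 6 libraries of 48 h to 8171 to 9028 at 72 h (log2 fold change −0.69, SE 0.035, adjusted p = 1.02e-24). Rpa2, the middle subunit of RPA, went from 9153 to 10307 at 48 h to 5957 to 7043 at 72 h (−0.58, SE 0.0471, adjusted p = 3.63e-16). Cdc6, the licensing ATPase, went from 5176 to 6165 down to 3666 to 4296 (−0.50, SE 0.0328, adjusted p = 7.02e-20). For these 3 genes too the ranges of the libraries did not meet.

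Smaller falls came from the other roles. Tk1, thymidine kinase of the salvage pathway, had a log2 fold change of −0.38 (SE 0.0607), Mcm2 of −0.37 (SE 0.0329), Mcm7 of −0.36 (SE 0.0328) and Chaf1b of −0.36 (SE 0.0411). Mcm10 stood at −0.35 (SE 0.0284) and Pole, the leading strand polymerase, at −0.32 (SE 0.0407), and the largest adjusted p of these 6 was 2.98e-07.

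The 3 members that rose were Ccne2, Lig1 and Rfc3. Ccne2, cyclin E2, went from 1050, 1004 and 1119 normalised counts to 1352, 1364 and 1452 in WT–mCherry cells and from 881, 854 and 986 to 1057, 1234 and 1357 in WT–emiRFP cells. Within each clone the 2 times did not overlap, and the log2 fold change was 0.41 (SE 0.0908, adjusted p = 9.66e-05), so that cyclin E2 rose in the step in which cyclin E1 fell. Lig1, the ligase that seals Okazaki fragments, had a log2 fold change of 0.23 (SE 0.0328, adjusted p = 1.76e-08), and Rfc3, a clamp loader subunit, of 0.15 (SE 0.0464, adjusted p = 0.00412). In the same step Cdkn1a, which encodes p21, rose from a mean of 2434 to 15380 normalised counts (log2 fold change 2.67, adjusted p = 5.4e-34).

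After 72 h members were called in both directions, 13 and 8 and then 9 and 13, near the shares of all genes given above. Between 72 and 96 h Cdc6, Cdc45, Gins1, Mcm6, Mcm7, Mcm10, Pole, Rfc4, Rfc5, Chaf1a, Ccne2, E2f1 and E2f2 rose, and Ccne1, E2f8, Mcm2, Mcm3, Gins2, Pola2, Lig1 and Chaf1b fell. Between 96 and 120 h Cdc6, Cdc45, E2f1, E2f2, E2f8, Pold1, Prim1, Rfc4 and Rrm2 rose, and Orc1, Mcm2, Mcm4, Mcm10, Rfc3, Fen1, Rpa2, Rrm1, Tyms, Ccne2, Chaf1a, Chaf1b and Slbp fell. That step depended on the libraries: without replicate 2 it held 8 members higher and 4 lower, and without replicate 3, 9 and 7. From 120 to 144 h all MCM subunits, all helicase activation genes and all histone supply genes fell, with Ccne2 at −0.58, Slbp at −0.35, Rfc3 at −0.33, Pcna at −0.30 and Rrm2 at −0.29 on the log2 scale. Slbp stood at 6973, 6361 and 6784 normalised counts in WT–mCherry and 6614, 5882 and 6457 in WT–emiRFP cells at 120 h, and at 4705 to 5492 over the 6 libraries of 144 h, without overlap (SE 0.0408, adjusted p = 2.5e-10). Ccne2 stood at 909 to 1481 at 120 h and 655 to 1073 at 144 h, with overlap across the clones (SE 0.0909, adjusted p = 4e-07). Rfc3 (SE 0.0465, adjusted p = 5.3e-08) and Rrm2 (SE 0.0368, adjusted p = 3.91e-09) were called at smaller sizes. The member that rose was E2f2 (log2 fold change 0.19, adjusted p = 0.041). Orc1, Cdt1, Pold1, Rfc5, Fen1, Tk1, Ccne1 and E2f1 were not called in that step.

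Over the 23 group means, the correlation of a member's log2 level with the median of the other members was highest for Rpa2 (0.963), Mcm5 (0.941) and Mcm10 (0.933), and below 0 for Rfc4 (−0.179), E2f2 (−0.277) and E2f1 (−0.532). The groups share clones and time points, so these values describe the course and carry no test.

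**Figure D2:**
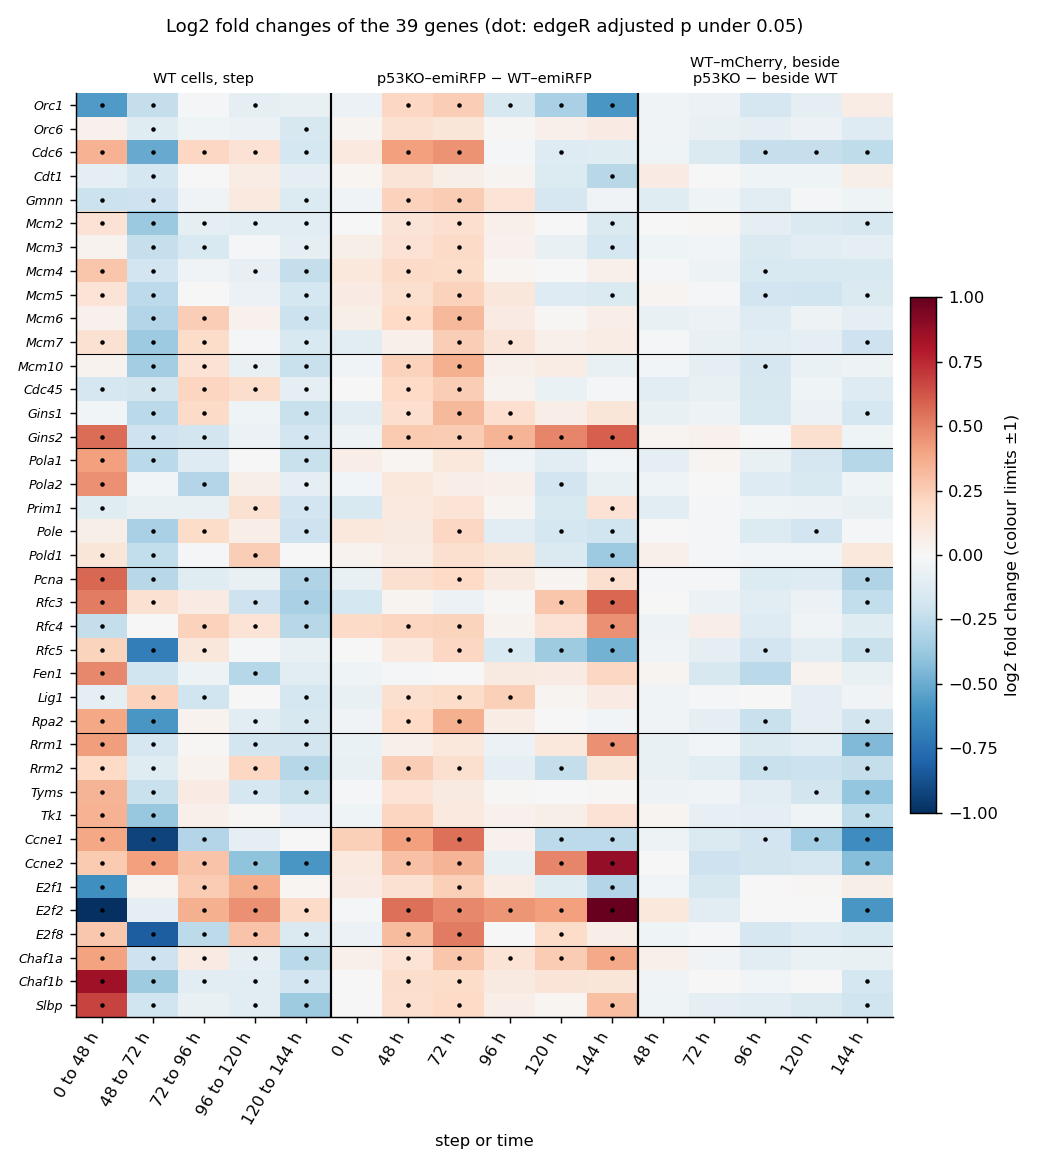
Heat map of log2 fold changes (colour, limits −1 and 1) of the 39 genes in rows, grouped by role, across the WT steps, the p53KO clone against its parent and the neighbour comparison. Dots mark an edgeR adjusted p under 0.05. The columns of 48 to 72 h and 120 to 144 h in WT cells are mostly lower, the p53KO columns at 48 and 72 h hold no lower call, and the neighbour columns hold no higher call.

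The second comparison asked what differed between p53KO–emiRFP cells and their parent clone. As mES cells no member was called by edgeR in the fit of that time: 0 of 39 were higher and 0 lower (1.97% and 4.16% of all genes), none had an unadjusted p under 0.05, and DESeq2 called none. With all 69 libraries in the edgeR fit 2 were higher. In gastruloids at 48 h 23 members were higher and 0 lower (10.3% and 11.7% of all genes), and at 72 h 28 were higher and 0 lower (13.4% and 15.7%). At 96 h 6 were higher and 2 lower (9.45% and 13.8%). The counts were 6 and 7 by 120 h (27.3% and 23.7%) and 10 and 10 by 144 h (33.2% and 32.2%). The counts of 120 and 144 h, in both directions, lay below the shares of all genes in the same unblocked fit. Once the replicate number was a block, 34 members were higher at 48 h (22.3% of all genes in that fit) and 30 at 72 h (19.6%). At 96 h the block gave 11 higher (17.4%) and 4 lower (21.1%), and at 120 h 10 (33.6%) and 14 (28.0%), so that the lower members at 120 h then stood above the share of all genes. The median log2 fold change of the members from 48 to 144 h was 0.16, 0.21, 0.05, 0.01 and 0.06, beside a median over all genes of 0.02, 0.01, −0.01, 0.05 and 0.01. With TMM scaling the split was 9 and 1 at 96 h and 6 and 11 at 120 h.

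The counts at 48 and 72 h also depended on which WT clone was the reference. Against WT–mCherry cells of WT + WT, a reference added after the values were seen, 7 members were higher and 0 lower at 48 h, beside 25.5% of all genes called in either direction, and their median log2 fold change was 0.04. Only 5 of the 23 members higher than in the parent clone were among these 7 (Cdc6, Gins2, Ccne1, E2f2 and E2f8). Gmnn, Orc1, Mcm2 and Mcm5 had log2 fold changes between −0.01 and 0.01 against WT–mCherry cells. At 72 h 16 were higher and 0 lower (29.5% of all genes in either direction), all of them among the 28. The counts against WT–mCherry cells were then 3 and 2 by 96 h (24.7%), 3 and 7 by 120 h (44.2%) and 10 and 5 by 144 h (54.1%). At 72 h Ccne1 (0.38), E2f2 (0.46), E2f8 (0.42), Cdc6 (0.35), Rpa2 (0.35), Mcm6 (0.26), Pole (0.30) and Mcm10 (0.18) were higher on the log2 scale than in both WT clones, whereas Gins1, Ccne2 and Rrm2 were not called against WT–mCherry cells. Rrm2 lay at −0.08 against WT–mCherry cells at 72 h and was lower than in them at 96 h (−0.26, adjusted p = 0.000595).

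The called differences at 48 and 72 h spread over the roles and lay between 0.13 and 0.55 on the log2 scale. At 72 h the call took in 3 of 5 licensing genes, all 6 MCM subunits, all 4 helicase activation genes, 5 of 7 clamp, loader and RPA genes, all 5 cyclin E and E2F genes and all 3 histone supply genes. The primase and polymerase group had 1 call of 5 (Pole) and the nucleotide supply group 1 of 4 (Rrm2). At 48 h the primase and polymerase group had none and Rrm2 was again the only nucleotide supply gene called. With the replicate block these groups had more calls, 4 of 5 primase and polymerase genes and 3 of 4 nucleotide supply genes at 48 h, and 3 of 5 primase and polymerase genes at 72 h. The 23 members called at 48 h were all called at 72 h as well. The counts rested on all 3 replicates: at 48 h they were 12, 8 and 13 without replicate 1, 2 or 3, at 72 h they were 15 and 11 without replicate 1 or 2, at 96 h 0, 3 and 5 without replicate 1, 2 or 3, and at 120 h 7 without replicate 1 and 9 without replicate 3.

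Ccne1 led at 72 h. It stood at 10649, 10419 and 9589 normalised counts in p53KO–emiRFP cells and at 6850, 7568 and 6533 in WT–emiRFP cells. Each p53KO library was above each WT–emiRFP library and above each WT–mCherry library beside WT (7651 to 8032), and the log2 fold change was 0.55 (SE 0.0602, adjusted p = 7.62e-06), a fold of 1.46. At 48 h the same gene stood at 18149, 18408 and 16566 against 13735, 13449 and 12798 (0.41, SE 0.0592, adjusted p = 0.000126).

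The E2F genes followed it. E2f8 at 72 h stood at 2182, 2372 and 2144 normalised counts in p53KO–emiRFP cells beside the 1422 to 1703 of WT–emiRFP cells (log2 fold change 0.52, SE 0.0859, adjusted p = 0.000381). E2f2 stood at 420, 453 and 450 against 307, 317 and 323 (0.48, SE 0.0861, adjusted p = 0.000719). Neither gene's p53KO and WT–emiRFP libraries overlapped, and E2f2 was also higher at 48 h (0.55, SE 0.119, adjusted p = 0.00354).

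Outside the cyclin E and E2F group Cdc6, which licenses origins, differed most at 72 h, with 5551, 5233 and 5033 normalised counts in p53KO–emiRFP cells and 3972, 3918 and 3666 in WT–emiRFP cells (log2 fold change 0.45, SE 0.0535, adjusted p = 1.67e-05). Mcm10 stood at 11692, 11328 and 11189 against 9119, 8972 and 8631 (0.36, SE 0.0435, adjusted p = 2.31e-05). Rpa2 stood at 8708, 8218 and 7970 against 7043, 6463 and 5957 (0.36, SE 0.0591, adjusted p = 0.0004). All 3 were without overlap. Mcm6 stood at 28786, 26664 and 27552 against 23661, 21258 and 21307 (0.33, SE 0.0585, adjusted p = 0.000758), again apart.

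Gins1 had a log2 fold change of 0.32 (SE 0.0661, adjusted p = 0.00211) and Chaf1a of 0.27 (SE 0.0564, adjusted p = 0.00207). The weakest of the named calls were Ccne2 (0.34, SE 0.0881, adjusted p = 0.00933), Pole (0.21, SE 0.0561, adjusted p = 0.0113) and Rrm2 (0.16, SE 0.0552, adjusted p = 0.0437), each of which was no longer called under some alternatives. Not called at 72 h were Orc6, Cdt1, Pola1, Pola2, Prim1, Pold1, Rfc3, Fen1, Rrm1, Tyms and Tk1.

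**Figure D3:**
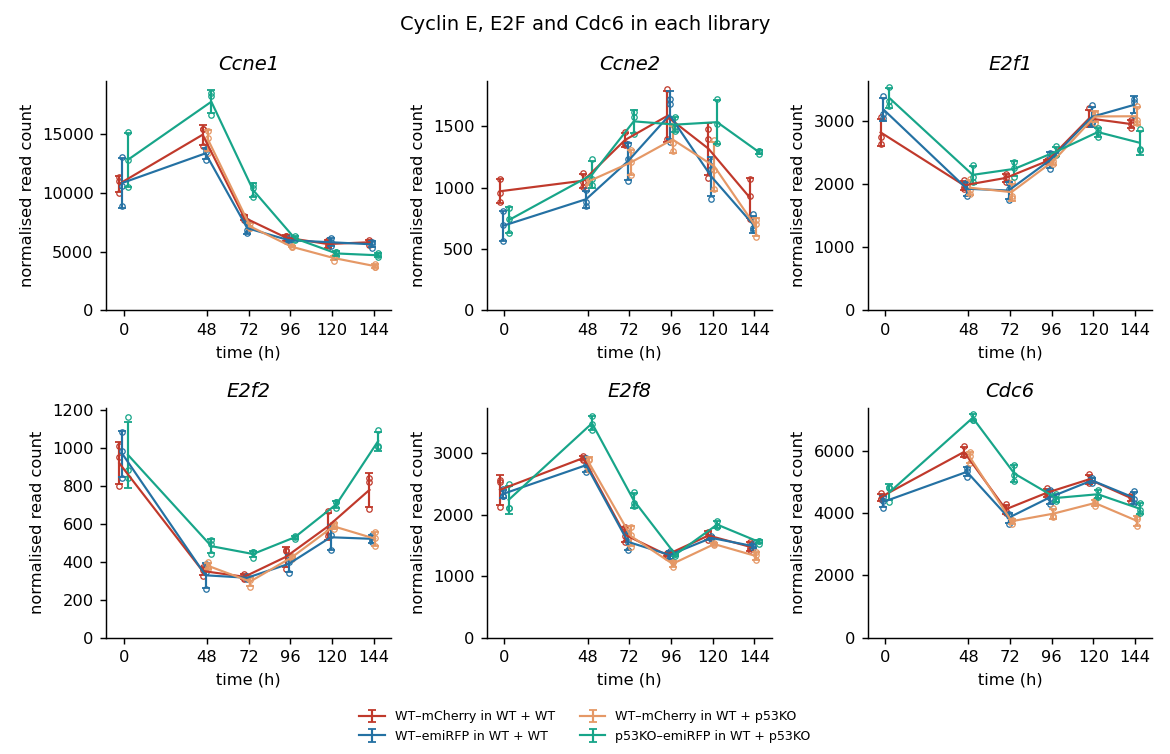
Normalised counts (y axis) against time in hours (x axis) for Ccne1, Ccne2, E2f1, E2f2, E2f8 and Cdc6, a point for each library with the mean of 3 and its SD, by population. Ccne1 falls from 48 to 72 h in the WT populations while Ccne2 is higher at 72 h than at 48 h, and at 144 h p53KO–emiRFP cells have the highest Ccne2 and E2f2.

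At 96 h Mcm7, Gins1, Gins2, Lig1, E2f2 and Chaf1a were higher in p53KO–emiRFP cells and Orc1 and Rfc5 lower. E2f2 stood at 522, 536 and 530 normalised counts against 339, 399 and 429 in WT–emiRFP cells (log2 fold change 0.44, SE 0.101, adjusted p = 0.00529), and Gins2 at 3676, 3850 and 3474 against 2762, 3046 and 2861 (0.34, SE 0.0641, adjusted p = 0.0013). Both were without overlap, whereas the differences of Orc1 (−0.16, adjusted p = 0.0286), Rfc5 (−0.15, adjusted p = 0.0355), Mcm7 (0.13, adjusted p = 0.0213) and Chaf1a (0.13, adjusted p = 0.036) were smaller.

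At 120 h Gins2, Rfc3, Ccne2, E2f2, E2f8 and Chaf1a were higher and Orc1, Cdc6, Pola2, Pole, Rfc5, Rrm2 and Ccne1 lower. Gins2 stood at 4023, 3843 and 3719 normalised counts against 2850, 2635 and 2779 (log2 fold change 0.49, SE 0.0734, adjusted p = 7.56e-05). Rfc5 stood at 7783, 7510 and 7698 against 9614, 9744 and 10011 (−0.35, SE 0.0451, adjusted p = 1.68e-05). Orc1 stood at 2167, 2327 and 2220 against 2745, 2927 and 2748 (−0.33, SE 0.0653, adjusted p = 0.000817). None of these overlapped, and Ccne2, at 1361, 1519 and 1724 against 1151, 909 and 1215, had a log2 fold change of 0.49 with a wider error (SE 0.147, adjusted p = 0.0122).

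At 144 h members were called in both directions, each a smaller share than among all genes in the fit without a block. In p53KO–emiRFP cells Ccne2, E2f2, Gins2, Prim1, Pcna, Rfc3, Rfc4, Rrm1, Chaf1a and Slbp were higher, and Orc1, Cdt1, Mcm2, Mcm3, Mcm5, Pole, Pold1, Rfc5, Ccne1 and E2f1 were lower. E2f2 stood at 1095, 1010 and 1006 normalised counts against 518, 502 and 544 in WT–emiRFP cells (log2 fold change 0.99, SE 0.0926, adjusted p = 4.42e-07), and Ccne2 at 1298, 1273 and 1303 against 655, 669 and 783 (0.88, SE 0.12, adjusted p = 1.9e-05). Neither overlapped any of the 9 WT libraries of that time, and Ccne1 lay the other way, at 4844, 4681 and 4514 against 5321, 5667 and 5844 (−0.26, SE 0.053, adjusted p = 0.000607).

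Orc1, the largest licensing difference at 144 h, stood at 1760, 1843 and 1819 normalised counts in p53KO–emiRFP cells and 2633, 2632 and 2868 in WT–emiRFP cells (log2 fold change −0.59, SE 0.0581, adjusted p = 8.14e-07). Gins2, a GINS subunit, stood at 3868, 3625 and 3459 against 2557, 2447 and 2241 (0.60, SE 0.0874, adjusted p = 3.61e-05). Rrm1, the large subunit of ribonucleotide reductase, stood at 18175, 17641 and 17655 against 13259, 12299 and 13490 (0.45, SE 0.0685, adjusted p = 4.77e-05). Each of the 3 was without overlap.

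The clamp loader split at 144 h. Rfc4 stood at 4180, 3971 and 4004 normalised counts in p53KO–emiRFP cells against 2951, 2975 and 2916 in WT–emiRFP cells (log2 fold change 0.46, SE 0.049, adjusted p = 1.69e-06), and Rfc3 had a log2 fold change of 0.57 (SE 0.072, adjusted p = 8.25e-06). Rfc5 stood at 6967, 7222 and 6762 against 9683, 9185 and 10196 (−0.47, SE 0.0574, adjusted p = 6.03e-06). The p53KO libraries also lay below WT–mCherry beside WT (7525 to 7864) for Rfc5, a gene in which the WT clones differed, and above it (3112 to 3339) for Rfc4. Against WT–mCherry cells Rfc5 was not called (log2 fold change −0.14, adjusted p = 0.0551), whereas Rfc4 was higher (0.32). Over all 6 times Chaf1a, E2f2 and Gins2 were higher in p53KO–emiRFP cells at each of the 5 gastruloid times, and Orc6, Pola1, Fen1, Tyms and Tk1 were not called at any time without a block. Against WT–mCherry cells Gins2 was higher at all 5, but Chaf1a was not called at 48 h (adjusted p = 0.0547) or 96 h (0.262), nor E2f2 at 120 h (0.0514). The gene opposite 67.3% of the exon bases of Gins2, Gse1, had a mean of 4083 normalised counts over all libraries, beside 3260 for Gins2. With the replicate block Orc6, Tyms and Tk1 were higher at 48 h, Tk1 also at 144 h, and Pola1 was lower at 120 h.

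The change between the times was tested itself, as the p53KO difference at 144 h minus that at 48 h. For 24 of 39 members it passed (50.2% of all genes), 17 downwards and 7 upwards, with a median of −0.13 on the log2 scale. Of the 23 members higher at both 48 and 72 h, 5 were lower at 144 h (Ccne1, Mcm2, Mcm3, Mcm5, Orc1) and 6 were higher there too (Ccne2, Chaf1a, E2f2, Gins2, Rfc4, Slbp). The shares of all genes with these joint calls were not computed. Against WT–mCherry cells Orc1, Mcm2, Mcm3 and Mcm5 were not called at 48 h (0.005, 0.004, 0.07 and −0.002 on the log2 scale). Nor were Mcm2, Mcm3 and Mcm5 called at 144 h, while Ccne1 changed direction there too (0.25 at 48 h and −0.31 at 144 h). Of the 6, Ccne2, Chaf1a, Rfc4 and Slbp were not called at 48 h against WT–mCherry cells. Ccne1 had a difference of differences of −0.67 and Ccne2 of 0.59, both among the 24.

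Other genes gave the surroundings of these values. Cdkn1a was lower in p53KO–emiRFP cells at every time, with log2 fold changes from 0 to 144 h of −2.18, −4.90, −1.38, −1.45, −2.69 and −3.67. Its mean in p53KO–emiRFP cells was 89.9 normalised counts at 48 h and 6177 at 72 h, against 2677 and 16040 in WT–emiRFP cells. The largest difference in the list of 22 G1 phase cyclin, RB, E2F and DREAM genes was at Rb1, which encodes the RB protein that holds E2F back. At 72 h it stood at 217, 223 and 220.0 normalised counts in p53KO–emiRFP cells and 888, 1015 and 1267 in WT–emiRFP cells (log2 fold change −2.26), and it was lower by 1.65 at 0 h (adjusted p = 0.000354), where the same fit called no member. By 144 h the Rb1 means were 1551 and 1740 (log2 fold change −0.17, adjusted p = 0.142). The change of its difference from 48 to 144 h was 1.93 (SE 0.21, adjusted p = 1.9e-11).

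Of 40 other replication genes p53KO–emiRFP cells had 9 higher and 0 lower at 48 h. The counts were 22 and 0 at 72 h, 7 and 1 at 96 h, then 9 and 9 by 120 h, and 16 and 8 in the last samples. The shares of all genes in these fits are those given above for the members. At 72 h their median log2 fold change was 0.21, with Orc2 (0.38), Dut (0.36), Clspn (0.33), Gins3 (0.32) and Rfc1 (0.32) largest. Of 30 mitotic genes 1 was higher and 2 lower at 48 h, while the 72 h counts were 13 and 2, those of 96 h 1 and 2, those of 120 h 2 and 9 and those of 144 h 8 and 9. The replicate block moved some of these counts, to 23 and 2 other replication genes and 11 and 4 mitotic genes at 48 h, 4 and 4 mitotic genes at 96 h and 3 and 14 at 120 h.

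The makeup of the populations differed as well. At 144 h the summed markers of mES cells were 432 to 589.3 CPM in p53KO–emiRFP and 2058 to 2316 CPM in WT–emiRFP cells (8 of 8 lower), those of caudal epiblast and paraxial mesoderm 489 to 609 against 65.3 to 89.7 (6 of 6 higher) and those of neurons 27.6 to 29.5 against 113 to 120 (1 higher and 3 lower of 6). Haematoendothelial markers were 33.8 to 43.3 against 142 to 145 CPM (2 of 5 lower), spinal cord markers 113 to 139 against 39.7 to 52.5 (3 of 5 higher), heart markers 9.08 to 9.44 against 13.5 to 17.8 (3 of 5 lower) and endoderm markers 11.5 to 16.2 against 20.97 to 26.3 (2 of 5 lower). The difference was already there by 120 h, with mES markers at 344 to 375 against 1539 to 1752 CPM (8 of 8 lower), caudal markers at 851 to 935 against 295 to 384 (4 of 6 higher), haematoendothelial markers at 15.7 to 22.8 against 106 to 111 (4 of 5 lower) and 3 of 5 endoderm markers lower. By 96 h mES markers stood at 531 to 568 against 783 to 891 CPM (6 of 8 lower), and of 6 caudal markers 2 were higher and 3 lower. At 72 h mES markers were 961 to 1013 against 1034 to 1142 CPM (4 of 8 lower) and no caudal marker was called. Endoderm markers were 49.9 to 52.6 against 32.8 to 36.0 CPM at 72 h and 38.2 to 44.9 against 24.4 to 30.6 CPM at 48 h, with 2 of 5 higher at both times. At 48 h caudal markers were 21.7 to 27.2 against 16.4 to 17.6 CPM (2 higher and 1 lower of 5 tested), haematoendothelial markers 35.4 to 37.6 against 35.8 to 36.3 (2 of 5 higher) and neuronal markers 88.5 to 102 against 88.5 to 91.5 (2 higher and 1 lower of 6). In that comparison 1 mES marker was higher and 1 lower, and 1 of 3 tested spinal cord markers was higher. At 72 h haematoendothelial markers were 25.5 to 27.1 against 29.6 to 31.9 CPM (1 of 5 lower), heart markers 13.4 to 14.3 against 12.2 to 12.6 (2 of 4 tested higher) and neuronal markers 57.8 to 66.7 against 66.98 to 79.5 (2 higher and 2 lower of 6). The part of this makeup in the values of the members was not tested.

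The third comparison asked what a p53KO neighbour changed in WT–mCherry cells, the same clone in WT + p53KO against WT + WT. In the fit without a block all calls lay in the lower direction. At 48 h 0 members were higher and 0 lower by edgeR (0 and 0.0736% of all genes), with 2 at an unadjusted p under 0.05 and 0 by DESeq2. At 72 h there were again 0 and 0 (0.231% and 0.327% of all genes), with 5 at an unadjusted p under 0.05 and 0 by DESeq2. At 96 h 0 were higher and 8 lower (2.87% and 1.05% of all genes). The counts were 0 and 4 by 120 h (3.41% and 2.52%) and 0 and 18 by 144 h (10.1% and 15.5%). The median log2 fold change of the members was −0.03, −0.05, −0.13, −0.09 and −0.15 over the 5 times, beside a median over all genes of −0.01, 0.00, 0.00, −0.01 and −0.03.

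These counts moved with the fit and the libraries. With the replicate number as a block 2 members were lower at 48 h (Gmnn and Prim1), near the share of all genes (3.69%), 26 at 96 h (9.19%) and 23 at 144 h (22.2%), so that 96 h then had the most. At 120 h, where the numbers do not pair the libraries, the block gave 14 lower and 1 higher, Gins2 (20.2% of all genes in either direction). Without replicate 1 or 2 no member was called at 96 h or at 120 h, and without replicate 3 there were 7 and 1. At 144 h 8, 6 and 13 members were called without replicate 1, 2 or 3. RNA of the emiRFP clones, estimated from the histone gene H2bc14 whose counts were high in those clones, made up 0.0919% to 2.006% of WT–mCherry libraries beside WT, and beside p53KO 1.389% to 3.491% at 96 h, 2.908% to 7.353% at 120 h and 2.26% to 16.76% at 144 h. With that share of p53KO–emiRFP RNA subtracted 9 members were lower at 96 h, 4 at 120 h and 21 at 144 h.

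At 96 h the 8 lower members were Cdc6, Mcm4, Mcm5, Mcm10, Rfc5, Rpa2, Rrm2 and Ccne1, and 1 of 39 members had a log2 fold change above 0. Cdc6 stood at 3900, 3884 and 4166 normalised counts beside p53KO and 4539, 4656 and 4794 beside WT (−0.23, SE 0.048, adjusted p = 0.0227). Rpa2 stood at 5644, 5777 and 5643 against 6771, 6862 and 6304 (−0.22, SE 0.0443, adjusted p = 0.017). Ccne1 stood at 5437, 5424 and 5344 against 6348, 6293 and 5894 (−0.19, SE 0.0419, adjusted p = 0.025). None of the 3 overlapped.

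At 120 h Cdc6, Pole, Tyms and Ccne1 were lower, with Ccne1 at 4598, 4546 and 4212 normalised counts beside p53KO and 5525, 5992 and 5395 beside WT (log2 fold change −0.34, SE 0.0621, adjusted p = 0.00582), again without overlap. At 144 h the lower members came from 7 of the 8 roles: Cdc6 in licensing, Mcm2, Mcm5 and Mcm7 of the helicase, Gins1, the clamp and loader genes Pcna, Rfc3 and Rfc5 with Rpa2, all 4 nucleotide supply genes, Ccne1, Ccne2 and E2f2, and Chaf1b and Slbp. No primase or polymerase gene was called.

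Ccne1 led again at 144 h, with 3949, 3654 and 3662 normalised counts beside p53KO and 5590, 5818 and 5945 beside WT. Every library beside p53KO was below every library beside WT, and the log2 fold change was −0.62 (SE 0.0532, adjusted p = 1.47e-05), a fold of 0.649. WT–emiRFP cells of WT + WT lay at the WT–mCherry level (5321, 5667 and 5844), and p53KO–emiRFP cells of the same mosaics lay between (4514 to 4844).

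The nucleotide supply genes were called as a whole group at 144 h. Tyms, thymidylate synthase, stood at 3930, 3804 and 3685 normalised counts beside p53KO and 5113, 4834 and 5002 beside WT (log2 fold change −0.39, SE 0.0462, adjusted p = 0.000138). Rrm1 (chr7:102441695-102469771 in GRCm38.p6) stood at 11068, 10389 and 12496 against 15053, 14614 and 16505 (−0.44, SE 0.0685, adjusted p = 0.000658). Tk1 stood at 2487, 2209 and 2249 against 2853, 2815 and 2619 (−0.26, SE 0.0736, adjusted p = 0.022). These 3 were without overlap, and so was Rrm2, the small subunit of ribonucleotide reductase, at 17944, 16205 and 18953 against 20700, 20610 and 21497 (−0.24, SE 0.0579, adjusted p = 0.00849).

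Pcna stood at 14155, 13983 and 14902 normalised counts beside p53KO and 18064, 17490 and 17386 beside WT at 144 h, without overlap (log2 fold change −0.30, SE 0.048, adjusted p = 0.00083). A pseudogene, Pcna-ps2, held counts equal to 16.01% of those of Pcna, and with these added the log2 fold change was −0.30 (adjusted p = 0.000955). Cdc6 stood at 3802, 3579 and 3889 against 4522, 4577 and 4368 (−0.26, SE 0.0525, adjusted p = 0.00353). Mcm7 (−0.21, adjusted p = 0.0145), Slbp (−0.20, adjusted p = 0.0138) and Gins1 (−0.18, adjusted p = 0.0346) were smaller. Pola1 was the largest primase and polymerase difference (−0.29, SE 0.112) and was not called (adjusted p = 0.076), but was called with the replicate block (adjusted p = 0.00202).

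**Figure D4:**
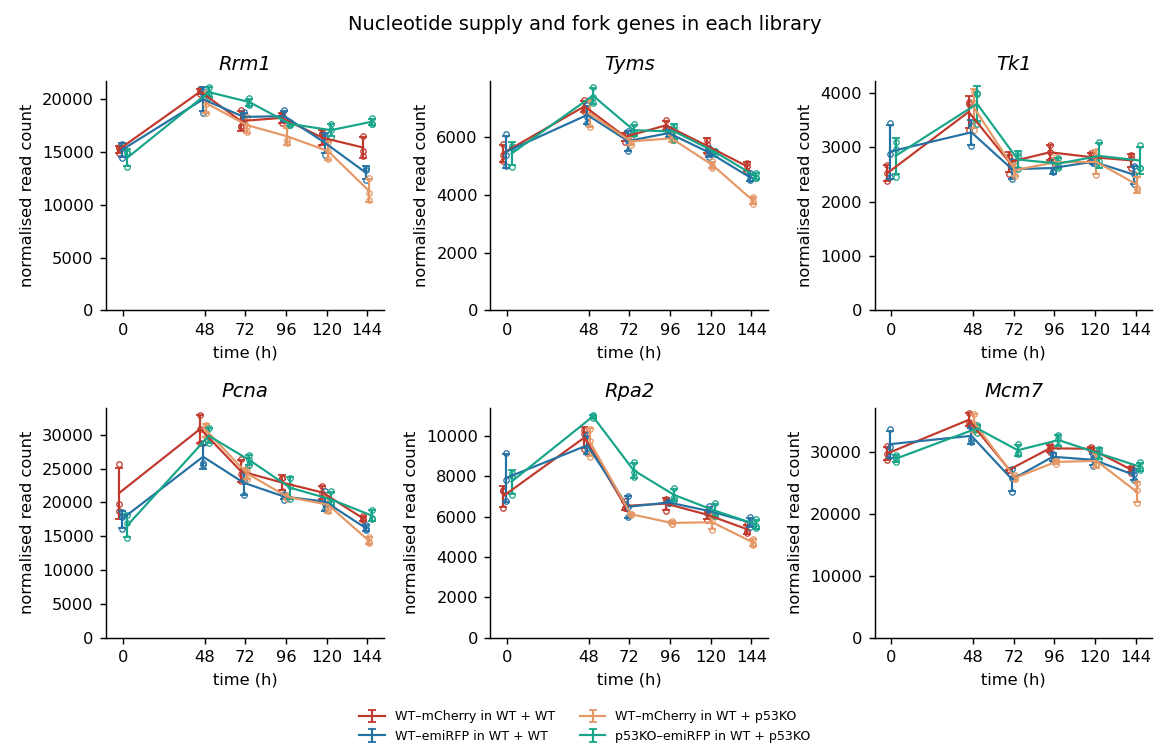
Normalised counts (y axis) against time in hours (x axis) for Rrm1, Tyms, Tk1, Pcna, Rpa2 and Mcm7, a point for each library with the mean of 3 and its SD, by population. At 144 h WT–mCherry cells beside p53KO lie lowest of the 4 populations in each of Rrm1, Tyms and Pcna.

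Of the remaining calls at 144 h, Rpa2 stood at 4909, 4651 and 4601 normalised counts beside p53KO and 5628, 5283 and 5209 beside WT (log2 fold change −0.19, SE 0.0527, adjusted p = 0.0196). Chaf1b stood at 4617, 4147 and 4360 against 4901, 4965 and 4927 (−0.17, SE 0.0517, adjusted p = 0.0262), and Mcm5 at 23463, 22220 and 23132 against 25112, 25543 and 25312 (−0.14, SE 0.0432, adjusted p = 0.0275). Although these differences were small, no library beside p53KO reached a library beside WT. Over the 5 times Ccne1 and Cdc6 were lower at 96, 120 and 144 h, and 18 of 39 members were not called at any time in the fit without a block: Orc1, Orc6, Cdt1, Gmnn, Mcm3, Mcm6, Cdc45, Gins2, Pola1, Pola2, Prim1, Pold1, Rfc4, Fen1, Lig1, E2f1, E2f8 and Chaf1a. With the replicate block 12 of these 18 were lower at 48, 96 or 144 h, among them Mcm3 and Mcm6 at 96 h, and Cdt1, Gins2, Pold1, Fen1, Lig1 and E2f1 were not.

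E2f2 and Ccne2 were also lower at 144 h beside p53KO, but in these genes the WT clones differed as well. E2f2 stood at 525, 484 and 555 normalised counts beside p53KO and 819, 677 and 842 beside WT (log2 fold change −0.58, SE 0.0925, adjusted p = 0.000807), and at 518, 502 and 544 in WT–emiRFP cells of WT + WT. Ccne2 stood at 705, 597 and 741 beside p53KO, 929, 748 and 1073 beside WT and 655, 669 and 783 in WT–emiRFP cells (−0.43, SE 0.121, adjusted p = 0.0203 for the neighbour). Both groups that were low were compared with the same 3 WT–mCherry libraries.

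Between the WT clones of WT + WT, WT–emiRFP against WT–mCherry, 1 member was higher and 7 lower at 48 h (8.90% of all genes called in either direction), then 0 and 3 at 72 h (7.64%), 0 and 0 by 96 h (2.15%), 1 and 0 by 120 h (1.22%) and 3 and 4 by 144 h (23.8%). At 96 h 13 members had an unadjusted p under 0.05 and DESeq2 called 2. With the replicate block the counts became 2 and 25 at 48 h (28.9% of all genes in either direction), 1 and 11 for the 96 h clones (15.9%), 2 and 2 for 120 h (10.8%), and 5 and 10 for the last time (33.9%). Without replicate 1, 2 or 3 the number of members called was 1, 0 and 3 at 48 h, 0, 0 and 2 at 72 h, 0 each time at 120 h and 4 each time at 144 h. Orc1, Cdc6, Gmnn, Mcm10, Pcna, Rfc4 and Rrm2 were lower and Rfc5 higher in WT–emiRFP cells at 48 h, and Rfc5 was higher at 120 and 144 h as well. At 144 h E2f2 (log2 fold change −0.58, adjusted p = 0.00069), Ccne2 (−0.38, adjusted p = 0.035), Rfc3 (−0.25, adjusted p = 0.021) and Rrm1 (−0.24, adjusted p = 0.02) were lower and Rfc5 (0.33), Pole (0.26) and Pold1 (0.16) higher. With the block all 4 nucleotide supply genes were lower in WT–emiRFP cells at 144 h, with Tyms at −0.11 (adjusted p = 0.0333), Rrm2 at −0.14 (adjusted p = 0.027) and Tk1 at −0.15 (adjusted p = 0.0275). Ccne1 had a log2 fold change of −0.04 there.

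The neighbour difference at 144 h minus that at 48 h passed for 5 of 39 members, all downwards, while 5.08% of all genes passed downwards and 9.10% in either direction. The 5 were Cdc6, Rrm1, Tyms, Ccne1 and E2f2. The replicate block in that fit gave 12 members, again all downwards (8.40% of all genes). Ccne1 had a difference of differences of −0.58 on the log2 scale and Tyms of −0.34. Without replicate 1 or 2 of every group 3 and 1 members passed.

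In the same comparison Cdkn1a had a log2 fold change of 0.01 at 48 and 72 h (not called), 0.42 at 96 h (adjusted p = 0.0314), 0.58 at 120 h (adjusted p = 0.0070) and 0.58 at 144 h (adjusted p = 0.0014). Of the 40 other replication genes none was called at 48 or 72 h, 0 were higher and 3 lower at 96 h, followed by 0 and 5 (120 h) and 0 and 13 (144 h, median −0.14), with Dut (−0.33), of nucleotide supply, the largest. Of the 22 G1 genes 1 was higher and 8 lower at 144 h, including Ccnd2 (−0.77), Ccnd1 (−0.38) and E2f3 (−0.36) lower and Rbl2 (0.44), an RB relative, higher. Of the 30 mitotic genes 0 were higher and 4 lower at 96 h, none was called at 120 h, and 0 and 4 were called at 144 h (median −0.02). With the replicate block more genes of these lists were called, with the shares of all genes as given for the members. At 96 h 0 mitotic genes were higher and 22 lower and 0 other replication genes higher and 18 lower, and at 144 h the counts were 4 and 6 mitotic, 1 and 22 other replication and 2 and 12 G1 genes.

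Lineage markers moved with these values as well. At 144 h spinal cord markers summed to 56.9 to 87.6 CPM beside p53KO and 84.6 to 102 beside WT (4 of 5 lower), neuronal markers to 55.0 to 62.2 against 72.5 to 77.7 (3 of 6 lower) and caudal markers to 105 to 190 against 116 to 155 (4 of 6 higher). The mES markers stood at 1666 to 1843 against 1552 to 1665 CPM, with 0 of 8 called. Of 5 haematoendothelial markers 3 were lower at 144 h (summed level 112 to 120 against 105 to 113 CPM), and 2 of 5 endoderm markers and 1 of 5 heart markers were higher. At 120 h caudal markers stood at 540 to 584 against 341 to 438 CPM (4 of 6 higher) and haematoendothelial markers at 51.3 to 59.4 against 72.5 to 85.8 CPM (3 of 5 lower). The mES markers were then 1078 to 1119 against 1223 to 1518 CPM (2 of 8 lower), neuronal markers 31.2 to 36.1 against 38.97 to 44.6 (1 higher and 1 lower of 6) and spinal cord markers 32.3 to 47.8 against 45.4 to 50.5 (1 of 5 lower). At 96 h 3 of 8 mES markers were lower (813 to 903 against 831 to 1030 CPM). Their part in the values of the members was not tested.

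Over the WT time course the other lists moved as follows from 48 to 72 h. Of the 40 other replication genes 0 rose and 28 fell (median −0.25), with Pole4 (−0.53), Orc2 (−0.50), Dbf4 (−0.50), Pold3 (−0.44) and Tipin (−0.43) largest. Of the 30 mitotic genes 1 rose and 25 fell (median −0.32), with Top2a (−0.75), Ube2c (−0.73) and Ccnb1 (−0.69) largest. Of the 22 G1 genes 6 rose and 9 fell, with Ccnd2, cyclin D2, rising by 3.50 on the log2 scale and Tfdp2, a partner of E2F, falling by 1.12. Lineage markers moved in the same step: those of caudal epiblast and paraxial mesoderm went from 12.1 to 17.6 CPM over the 6 libraries of 48 h to 774 to 1195 CPM at 72 h (3 of 6 rose and 1 fell), and those of mES cells from 826 to 997 to between 1034 and 1285 CPM (6 of 8 rose and 1 fell). Their part in the fall of the members was not tested. From 120 to 144 h 1 other replication gene rose and 19 fell (median −0.10), and 7 mitotic genes rose and 4 fell. In that step caudal markers went from 295 to 438 CPM over both clones to between 65.3 and 155 (6 of 6 fell), while 5 of 8 mES markers, 4 of 6 neuronal markers and 3 of 5 spinal cord markers rose. From 0 to 48 h 7 of 8 mES markers fell, from 4236 to 4613 CPM to between 826 and 997. Neuronal markers went from 531 to 689 CPM to between 86.7 and 91.5 (3 rose and 2 fell of 6). Haematoendothelial markers went from 66.9 to 92.2 CPM to between 35.8 and 41.8 (2 rose and 3 fell of 5). Caudal markers went from 25.8 to 33.1 CPM to between 12.1 and 17.6 (3 of 6 fell). Of 5 spinal cord markers 1 rose and 2 fell, and of 5 heart and 5 endoderm markers 1 rose and 3 fell in each list. The part of these markers in the values of the members was not tested.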

How the data were processed

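RNA from 69 libraries was sequenced as stranded poly-A libraries. The authors trimmed reads with Trim Galore 0.6.7, aligned them with STAR 2.7.11b to GRCm38.p6 and deposited uniquely mapped counts per gene. The strand column taken is not given in the sources used here, and 3 independent experiments per group were stated. No column was left unmapped.

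Counts were scaled by median-of-ratios size factors (17794 genes) and tested with edgeR 4.0.16 in R 4.3.3 (quasi-likelihood, filterByExpr, Benjamini-Hochberg over all genes, threshold 0.05). Each time point was fitted alone (12 libraries, 8 residual degrees of freedom, or 9 libraries at 0 h), and the WT steps and differences of differences in 1 fit of 69. Scripts were tested on simulated data. Alternatives were DESeq2 1.42.0, TMM scaling, no filter, other sample sets, WT–mCherry cells as the reference for p53KO, leaving out a replicate, subtracting emiRFP RNA and a replicate block.

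Same-numbered libraries of a time point deviated together (93 of 99 pairs over 0.1, correlations 0.0373 to 0.687). All pairs passed in every p53KO comparison, the neighbour at 48, 72, 96 and 144 h, the clones at 48, 96, 120 and 144 h, and WT 48 to 72 h, where the numbers were taken to pair libraries.

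Members and lists were chosen with earlier results of these data known. Named in full in each of the 3 families, at the time with most members called, were the member of each role with the largest change, up to 4 further largest and up to 3 against the majority. Up to 5 genes per other list were named, and Trp53 and Cdkn1a throughout. Members named elsewhere were chosen after their values were seen.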

Additional observations from a re-analysis of the deposited data

Results flagged for a closer look

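The results here were picked out because the difference between 48 and 144 h was itself tested, as the log2 fold change at 144 h minus that at 48 h in the fit over all libraries. For p53KO–emiRFP against WT–emiRFP cells 24 members passed, beside 50.2% of all genes. Among the members described above, the change was downwards for Ccne1 (−0.67), Cdc6 (−0.53), Mcm10 (−0.31), Pole (−0.29), E2f8 (−0.25) and Rpa2 (−0.23), and upwards for Ccne2 (0.59), E2f2 (0.44) and Chaf1a (0.24). Cyclin E1 and cyclin E2 thus changed in opposite directions in the same libraries, while E2f2, Ccne2 and Pole are also among the 7 members in which the WT clones were called different at 144 h.

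For the p53KO neighbour comparison in WT–mCherry cells, 5 members passed, all downwards, beside 5.08% of all genes downwards: E2f2 (−0.68), Ccne1 (−0.58), Rrm1 (−0.37), Tyms (−0.34) and Cdc6 (−0.22). The WT clones differed at 144 h in E2f2 and Rrm1 and, with the replicate block, also in Tyms. At 144 h the WT clones were not called different in Ccne1 or Cdc6 by either fit, but at 48 h Cdc6 was lower in WT–emiRFP cells. The share of emiRFP RNA in these WT–mCherry libraries was also highest at 144 h, and its part in the change of the difference was not tested. Nor was the part of cell loss or of the lower number of partner cells seeded in WT + p53KO.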

How the results depend on the processing

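Of 230 counts recomputed under alternatives 164 stayed within 1.5 times and kept their majority direction, 61 did not stay within that range, and 5 changed majority direction. Of 340 values of named members 309 kept direction and side of the threshold, 31 changed side and 0 changed direction. Those that lost their call under some alternatives were Pole, Rrm2 and Ccne2 for p53KO at 72 h and Cdc6, Mcm7, Slbp, Gins1, Ccne2 and Tk1 for the neighbour at 144 h.

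The majority direction changed in WT cells from 72 to 96 h with WT–mCherry cells beside p53KO in the mean (26 called, 12 higher and 14 lower), from 96 to 120 h with no filter (14, 9 and 5) and without replicate 2 (12) or 3 (16), and for p53KO at 120 h without replicate 3 (9). The replicate block gave 15 for p53KO at 96 h and 24 at 120 h. For the neighbour it gave 2 at 48 h, 26 at 96 h and, where the numbers do not pair the libraries, 15 at 120 h. For the clones it gave 27, 12, 4 and 15 at 48, 96, 120 and 144 h and 6 at 72 h, and for the change of the neighbour difference 12. It changed no other count by over 1.5 times. With no filter the counts were 4 for p53KO at 96 h and 1, 1 and 0 for the clones at 72, 96 and 120 h. With the compared groups alone they were 5 for p53KO at 96 h, 2, 1 and 11 for the neighbour at 96, 120 and 144 h, and 5, 0 and 0 for the clones at 48, 72 and 120 h. With all 69 libraries they were 2 for p53KO at 0 h and 9 for the neighbour at 120 h. With WT–mCherry cells as the reference, added after seeing the data, p53KO had 7, 16 and 5 at 48, 72 and 96 h. DESeq2, which made more false calls than edgeR on simulated data of 12 libraries, gave 13 and 8 for the neighbour at 96 and 120 h, 15 and 2 for the clones at 48 and 96 h, and 8 for the change of the neighbour difference. Fits on fewer libraries also have fewer residual degrees of freedom. The cause of these changes was not tested.

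Leaving out a replicate gave 29 to 33, 30 to 33, 18 to 21, 12 to 18 and 22 to 30 calls in the WT steps. It gave 0 to 0, 8 to 13, 11 to 20, 0 to 5, 7 to 12 and 16 to 18 for p53KO from 0 to 144 h, and 0 to 0, 0 to 0, 0 to 7, 0 to 1 and 6 to 13 for the neighbour. For the clones it gave 0 to 3, 0 to 2, 0 to 0, 0 to 0 and 4 to 4, and for the changes of the p53KO and neighbour differences 16 to 20 and 1 to 5. TMM scaling changed the direction of no called member. Fen1 had the fewest counts of the members, and its SE at 144 h (0.23 on the log2 scale for the neighbour) was the largest of any member there.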
